A study of Mus musculus with 2 samples.

Results

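Tight junctions and gap junctions are the contacts by which neighbouring cells seal the space between them and pass small molecules to each other. Tight junction strands are built from claudins, with occludin and the junctional adhesion molecules beside them, and are anchored to actin by the scaffold proteins of the Tjp genes and cingulin. Gap junction channels are built from connexins, and pannexins form related channels that release ATP. In the brain these genes are best known from the blood-brain barrier, from coupled astrocytes and radial glia, and from the choroid plexus and myelin. The genes were taken by name from the probe annotation of the array: 23 claudins, 20 connexins, 3 pannexins and 8 other tight junction genes, which encode occludin, junctional adhesion molecules and scaffolds. These 54 genes, of 37008 gene names on the array, were covered by 77 probes.

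Total RNA was measured on 2 one-colour Agilent arrays. One array held a mouse neurosphere sample and the other a sample labelled VZ/SVZ, for the ventricular zone and the subventricular zone, which line the lateral ventricles and hold neural stem cells. Neurospheres are floating clusters grown from neural stem and progenitor cells. Both samples came from brains of 6-month-old C57BL/6 mice labelled as heterozygous for Ecrg4 and positive for β-galactosidase, and the growth protocol puts both in DMEM/F12 with bFGF, EGF and heparin. That protocol does not settle whether the VZ/SVZ RNA came from cultured or freshly isolated cells, so a difference of cell source and one of culture against tissue cannot be told apart. The sources used here do not give which cells carry the β-galactosidase, how positive cells were picked or how many animals were used. No wild-type sample was analysed here, so every value below is from Ecrg4-heterozygous cells.

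Each group has 1 array, so nothing is replicated and nothing was tested. Each difference is a log2 level in the VZ/SVZ sample minus neurosphere for these 2 arrays, where the level is the log2 processed signal scaled to the 75th percentile of its array. The error after ± is the scanner's technical error only, with nothing in it of how animals or cultures vary. A gene counts as higher on an array when it is at least 2-fold apart, and as measured when a probe was well above background on at least 1 array. The share of probes well above background was 61.2% for the neurosphere array and 66.2% for VZ/SVZ, and no spot was saturated. As a check of the labels, all 10 neural stem or progenitor markers were measured. Of these, 4 (40%) were higher in the neurosphere, beside 11.1% of all genes measured. Among the 4 were Nes at -1.81 ± 0.20 and Egfr at -1.69 ± 0.20, with another Egfr probe at 0.46. In the VZ/SVZ sample 2 (20%) were higher, Id4 at 1.30 ± 0.22 among them, near the 18.7% of all genes measured. The median of the 10 markers was -0.49. Their summed processed signal, 63694 and 35812 in that order of arrays, came mostly from Fabp7 (42131 and 21259) and Vim (15909 and 11999).

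Junction genes were higher in the VZ/SVZ sample where they differed. Of the 54 genes, 35 were measured, and 13 of these (37.1%) were higher in the VZ/SVZ sample by 2-fold or more, and 0 were higher in the neurosphere by that fold. Over all 26434 genes measured, 18.7% were higher in the VZ/SVZ sample and 11.1% in the neurosphere by the same fold. The median difference was 0.66 over the junction genes and 0.04 over all genes measured. Of the 35 genes, 3, Cldn1 and Cldn3 among them, were dim on the neurosphere array only, and so could be measured only as higher in the VZ/SVZ sample. Among the 32 junction genes well above background on both arrays, 11 were higher in the VZ/SVZ sample, with a median of 0.43, beside 14.4% and a median of -0.05 over all genes of that kind. Counted by probe, 19 of 51 measured probes were higher in the VZ/SVZ sample and 0 in the neurosphere, beside 18.3% and 11.8% of all probes measured.

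**Figure D1:**
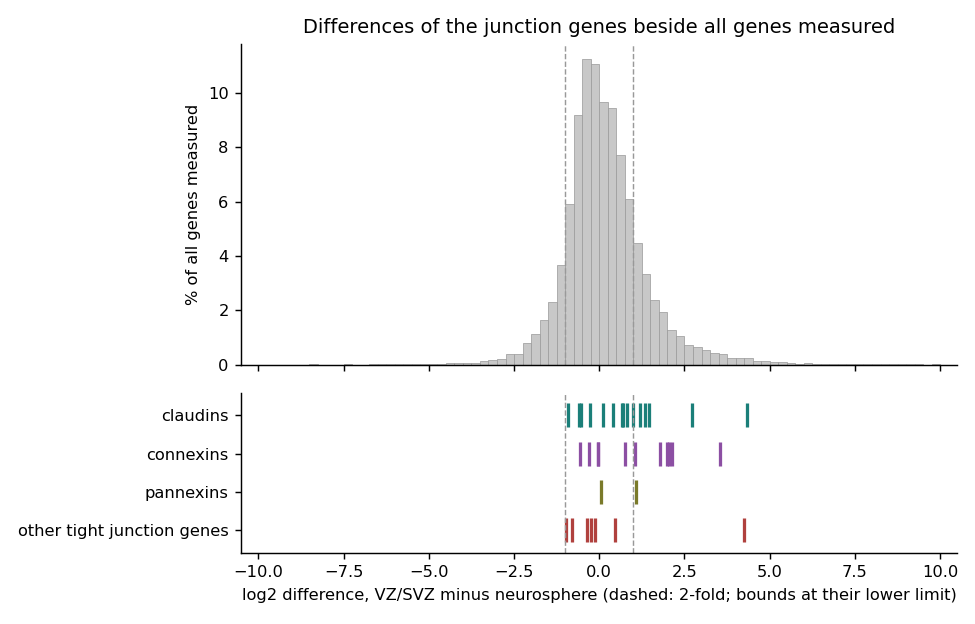
The upper panel is a histogram of the log2 difference, VZ/SVZ minus neurosphere, over all 26434 genes measured, as a percentage of genes per bin, and the lower panel marks each of the 35 measured junction genes by class. Dashed lines stand at 2-fold: 13 junction genes lie beyond the right line and none beyond the left line, and genes dim on 1 array are drawn at the limit of their bound.

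The genes with the largest differences were Cldn5, F11r and Gja4, at places 96, 105 and 206 from the top among the 21907 genes well above background on both arrays. Promoter sequence is printed for these and for Cldn6, Cldn15 and Gja1, which were picked from the 13 genes higher in the VZ/SVZ sample. The pick does not follow the size of the difference: Gjc1 (2.12) and Gja5 (2.03) stood above Gja1 (1.78) and Cldn15 (1.33). It includes every higher gene with the AP-1 site described below, so the lines do not show how common that motif is. Each line gives the 250 bases before the RefSeq start in GRCm38.p6, 5′ to 3′ on the gene's strand. Capitals mark 4 motifs, each searched on both strands, so that its reverse complement counts too. The first is the AP-1 site TGANTCA. The next is the E-box CAGGTG, which Snail and ZEB factors bind. The others are the GC box GGGCGG of the Sp1 family and the TATA box TATAAA. No 2 motifs overlapped in these lines.
Cldn5, chr16:18776597-18776846, plus strand: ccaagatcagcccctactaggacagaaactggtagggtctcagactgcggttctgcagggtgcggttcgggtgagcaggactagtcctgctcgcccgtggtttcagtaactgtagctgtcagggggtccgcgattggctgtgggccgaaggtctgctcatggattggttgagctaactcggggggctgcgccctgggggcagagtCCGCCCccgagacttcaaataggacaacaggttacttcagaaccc
Cldn6, chr17:23679115-23679364, plus strand: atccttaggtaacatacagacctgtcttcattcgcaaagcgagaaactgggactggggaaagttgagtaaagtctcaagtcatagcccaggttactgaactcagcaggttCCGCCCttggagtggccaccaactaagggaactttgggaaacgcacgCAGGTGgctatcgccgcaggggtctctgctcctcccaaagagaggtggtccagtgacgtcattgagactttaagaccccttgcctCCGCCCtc
Cldn15, chr5:136967619-136967868, plus strand: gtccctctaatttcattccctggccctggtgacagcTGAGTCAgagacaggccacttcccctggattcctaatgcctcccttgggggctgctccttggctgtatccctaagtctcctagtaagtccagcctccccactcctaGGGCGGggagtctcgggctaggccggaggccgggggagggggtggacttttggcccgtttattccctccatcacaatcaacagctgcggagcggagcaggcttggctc
F11r, chr1:171437311-171437560, plus strand: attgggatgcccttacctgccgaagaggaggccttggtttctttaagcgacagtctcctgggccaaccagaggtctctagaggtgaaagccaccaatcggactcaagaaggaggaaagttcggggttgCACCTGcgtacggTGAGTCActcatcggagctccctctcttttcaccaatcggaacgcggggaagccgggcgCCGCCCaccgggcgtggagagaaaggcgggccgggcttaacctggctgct
Gja1, chr10:56377050-56377299, plus strand: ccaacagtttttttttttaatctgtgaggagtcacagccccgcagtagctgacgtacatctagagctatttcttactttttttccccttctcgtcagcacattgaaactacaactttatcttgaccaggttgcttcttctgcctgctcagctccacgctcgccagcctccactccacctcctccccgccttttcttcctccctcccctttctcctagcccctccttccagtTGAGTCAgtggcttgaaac
Gja4, chr4:127314040-127314289, minus strand: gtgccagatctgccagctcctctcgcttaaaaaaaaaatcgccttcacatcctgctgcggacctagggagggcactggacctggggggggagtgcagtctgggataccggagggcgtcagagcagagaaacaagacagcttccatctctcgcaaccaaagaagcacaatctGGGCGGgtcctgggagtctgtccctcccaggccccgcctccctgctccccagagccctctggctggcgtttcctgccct

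The AP-1 letters lay 19 bases before the start in Gja1, 109 in F11r and 214 in Cldn15, counted from the first base of the motif. RefSeq's table held 51 windows for 37 of the 54 junction genes, and a gene with several windows was counted if any of them held the motif. The shares over all windows count each window singly, so they are not like for like with the gene counts. AP-1 letters were present in 3 of the 10 such genes higher in the VZ/SVZ sample, in 1 (Cldn4) of the 16 within 2-fold and in 0 of the 11 dim on both arrays, beside 6.75% of all 32851 windows. The GC box was present in 8 of 10, 6 of 16 and 5 of 11, beside 32.7% of all windows. The E-box was present in 3, 5 and 3 of these genes, beside 17.2%, and the TATA box in 1, 3 and 1, beside 12.4%. Letters in a window are a description and show no binding.

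**Figure D2:**
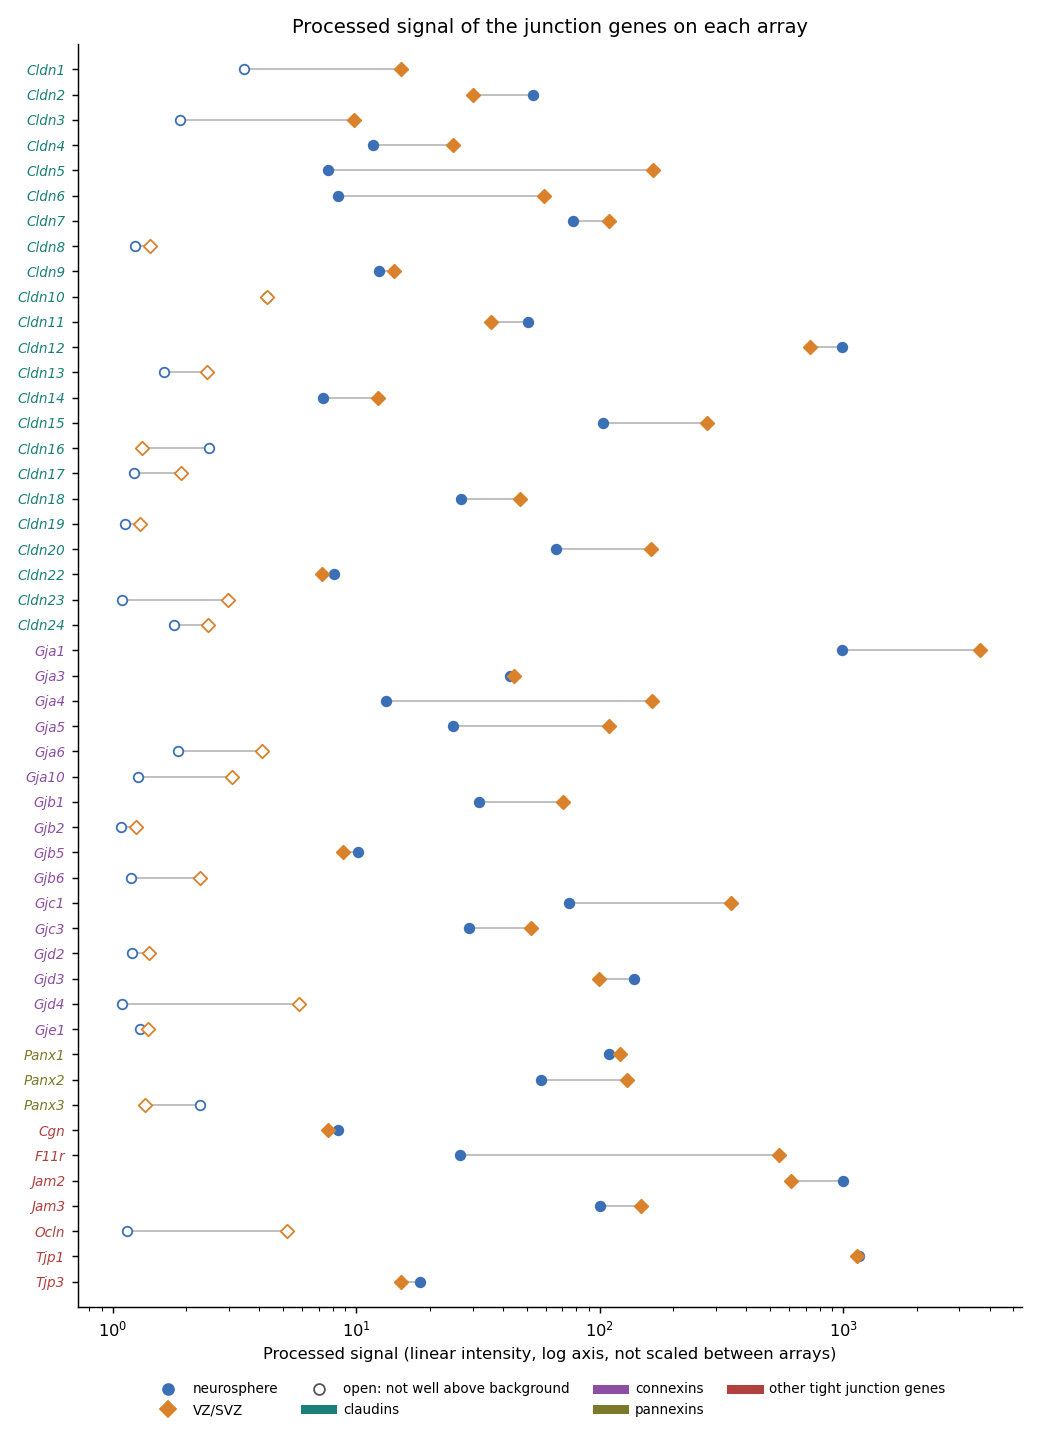
Each row is 1 of 49 junction genes, with its processed signal (log axis, linear intensity as deposited, not scaled between arrays) on the neurosphere array as a circle and on the VZ/SVZ array as a diamond; open symbols were not well above background. Cldn5, F11r and Gja4 show the widest gaps among genes with both symbols filled, and 17 genes have both symbols open. Levels of different genes are not comparable, because each probe has its own response.

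Among claudins, 15 of 23 were measured, and the median was 0.70. In the VZ/SVZ sample 5 (33.3%) were higher, beside 18.7% of all genes measured, and none in the neurosphere, beside 11.1%. Cldn5, the main sealing claudin of brain endothelium, had a processed signal of 7.63 for the neurosphere array and 165 for VZ/SVZ. It was 20.3-fold higher in the VZ/SVZ sample (4.34 ± 0.29), by 1 probe at chr16:18778046-18778105 (mm9). Cldn6, a claudin of embryonic epithelia, had signals of 8.43 in the neurosphere and 58.8 in the VZ/SVZ sample and was 6.53-fold higher in the VZ/SVZ sample (2.71 ± 0.30). The neurosphere signals of both genes were low on the scale of their array, whose 75th percentile was 99.4, so their folds rest on a faint value.

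Cldn15, which forms cation channels between cells, was bright on both arrays, with signals of 103 in the neurosphere and 276 in the VZ/SVZ sample, and was 2.51-fold higher in the VZ/SVZ sample (1.33 ± 0.20). Cldn20 had signals of 66.3 and 162 in the same order (2.29-fold, 1.20 ± 0.21), and stood at 0.77 with normexp background correction, short of 2-fold. Cldn1, a sealing claudin of skin and choroid plexus, was not above background in the neurosphere (3.45) and had a signal of 15.3 in the VZ/SVZ sample. That makes it at least 2.76-fold higher (1.46) by the scaling used here, where the bound sets the bright level against the detection floor of the dim array (the lowest level of any probe called present there), or the gene's own dim level if that is higher. Other processing gave Cldn1 lower values, 0.21 with normexp and 0.94 with quantile normalization. Cldn3, another sealing claudin, was dim in the neurosphere (1.88) and had a signal of 9.74 in the VZ/SVZ sample, at least 1.76-fold higher and so short of 2-fold. Its neighbour in function Cldn4 stood at 0.99 ± 0.25, just inside 2-fold, with signals of 11.7 and 24.8.

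The other measured claudins lay within 2-fold, and 4 of them were below 0. Cldn2, a channel-forming claudin of choroid plexus and other leaky epithelia, had signals of 53.3 in the neurosphere and 30.2 in the VZ/SVZ sample (-0.91 ± 0.22, with its other probe at -0.14). Cldn11, the claudin of myelin and of the arachnoid barrier, had signals of 50.9 and 35.7 (-0.60 ± 0.21). Cldn12, which is expressed in many tissues, had signals of 985 and 732 (-0.52 ± 0.20), and Cldn22 stood at -0.27 ± 0.40. Those above 0 were Cldn18 of lung and stomach (0.70 ± 0.22), Cldn14 of the inner ear (0.66 ± 0.33), Cldn7 of simple epithelia (0.40 ± 0.21) and Cldn9 (0.12 ± 0.27), the last at -0.34 with quantile normalization. The claudins that differed by 2-fold were thus all higher in the VZ/SVZ sample, and the channel-forming genes Cldn2 and Cldn15 stood on opposite sides of 0. Cldn8, Cldn10, Cldn13, Cldn16, Cldn17, Cldn19, Cldn23 and Cldn24 were dim on both arrays.

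**Figure D3:**
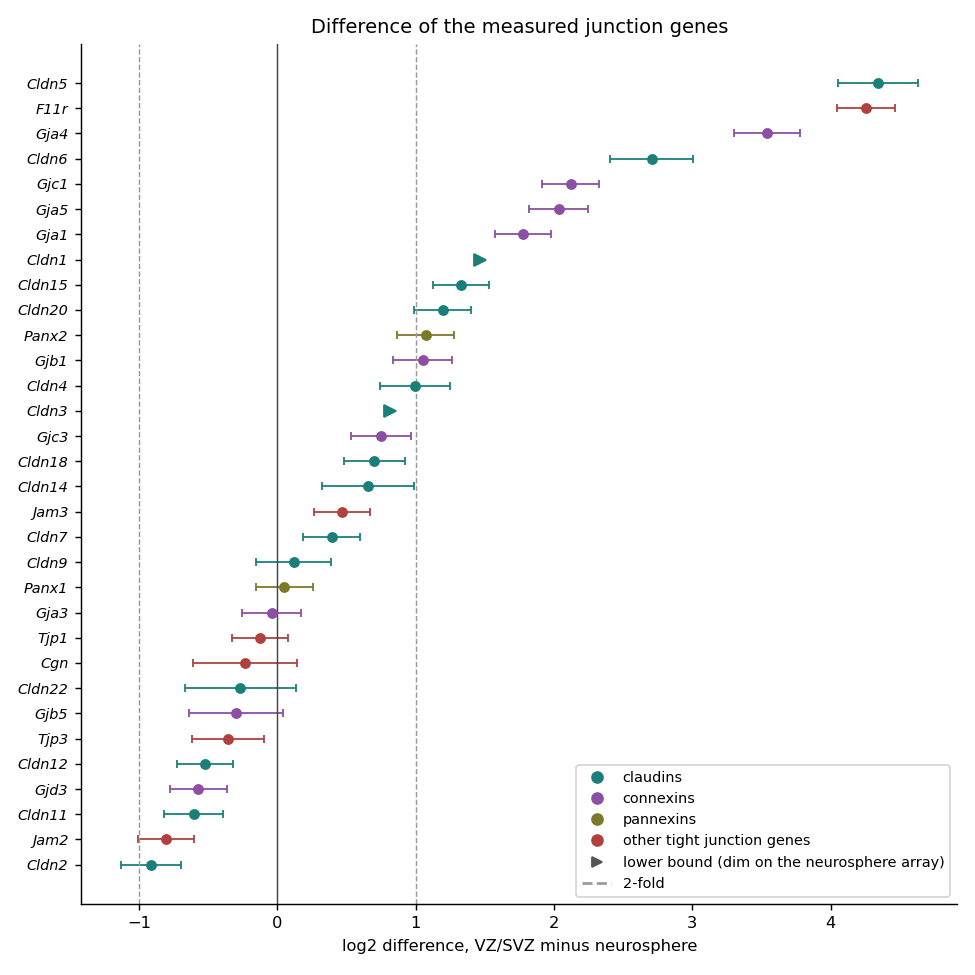
Points give the log2 difference, VZ/SVZ minus neurosphere, of 32 measured junction genes, sorted, with the scanner's technical error as bars and lower bounds as arrowheads for the 2 genes dim on the neurosphere array. The 12 genes beyond the right dashed line (2-fold) include 5 connexins and 5 claudins, and Cldn2 (-0.91) is the lowest shown.

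Connexins had a larger share of differences than claudins. Of 20 connexins, 11 were measured, with a median of 1.05. In the VZ/SVZ sample 6 (54.5%) were higher, beside 18.7% of all genes measured, and none in the neurosphere, beside 11.1%. Gja1, the principal connexin of astrocytes and radial glia, had signals of 993 in the neurosphere and 3628 in the VZ/SVZ sample and was 3.42-fold higher in the VZ/SVZ sample (1.78 ± 0.20), by a probe at chr10:56109814-56109873 (mm9). Of its 8 probes, the other 2 annotated to the same curated mRNA stood at 1.75 ± 0.20 and 1.49 ± 0.20. The probes annotated to other transcript models of Gja1 were fainter: 3 were dim on the neurosphere array, with bounds of 0.52, 0.72 and 1.48, 1 was dim on both, and 1 had the opposite sign (-0.71 ± 0.31, signals of 15.0 and 9.79).

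Gja4, an endothelial connexin, had signals of 13.2 in the neurosphere and 164 in the VZ/SVZ sample (11.6-fold, 3.54 ± 0.24). Gjc1, the connexin of smooth muscle and of the developing vessel wall, had signals of 74.6 and 347 (4.35-fold, 2.12 ± 0.21). Gja5, the other main endothelial connexin, had signals of 24.9 and 109 (4.10-fold, 2.03 ± 0.21), but its second measured probe, annotated to another transcript, stood at -0.14 ± 0.27 with signals of 14.1 and 13.7. The median over its probes was 0.95, short of 2-fold. Gjb1, the connexin of oligodendrocytes and Schwann cells, had signals of 31.9 and 70.7, at 2.07-fold (1.05 ± 0.21), within its technical error of the 2-fold line.

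Other measured connexins lay within 2-fold. Gjc3, expressed in myelinating glia, stood at 0.75 ± 0.22 with signals of 29.1 in the neurosphere and 52.4 in the VZ/SVZ sample. Gja3, a lens connexin, stood at -0.04 ± 0.21, with its other probe at no less than 1.32. Gjb5 stood at -0.30 ± 0.34, and Gjd3 at -0.57 ± 0.20 with signals of 139 and 99.7. The 9 connexins dim on both arrays included Gjb6 and Gjb2, which astrocytes express beside Gja1, and Gjd2 of neurons. Gja6, Gja10, Gjd4 and Gje1 were dim as well.

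Of the pannexins, Panx2, the one found mainly in the nervous system, had signals of 57.5 in the neurosphere and 129 in the VZ/SVZ sample (2.10-fold, 1.07 ± 0.21). Its other probe was faint, with signals of 8.63 and 4.62, and dim in the VZ/SVZ sample, with a bound of -0.64 or below. The side of that bound was set by which array was dim. Panx1, the widely expressed ATP release channel, had signals of 110 and 121 (0.05 ± 0.21), and its fainter probes, each dim on 1 array, had bounds of 0.89 and -0.28. Panx3, of bone and cartilage, was dim on both arrays.

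Of the other tight junction genes, 7 of 8 were measured. In the VZ/SVZ sample 1 (14.3%) was higher, beside 18.7% of all genes measured, and none was higher in the neurosphere. By the probe used for each gene, 5 stood below 0 and the median was -0.23. With the median over the probes of a gene, the class median was 0.05, so its side of 0 depends on the probe. The gene that was higher was F11r, which encodes the junctional adhesion molecule JAM-A of epithelia and endothelia. Its signals were 26.7 in the neurosphere and 545 in the VZ/SVZ sample, 19.1-fold higher in the VZ/SVZ sample (4.26 ± 0.21), by 1 probe at chr1:173393848-173393907 (mm9). Jam3, its relative in vessels and stem cells, stood at 0.47 ± 0.21 with signals of 100.3 and 148. Jam2, an endothelial and neural relative, stood at -0.81 ± 0.20 by its brighter probe, with signals of 994 and 607.

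The scaffold genes Tjp1, Tjp3 and Cgn lay within 2-fold. Tjp1, which encodes the scaffold ZO-1 that binds claudins and connexins, had signals of 1166 in the neurosphere and 1143 in the VZ/SVZ sample (-0.12 ± 0.20), with its second probe at -0.06 ± 0.20. With quantile normalization it stood at 0.14. Tjp3, the scaffold mainly of epithelia, stood at -0.36 ± 0.26 with its other probe at 0.17, and cingulin (Cgn) at -0.23 ± 0.38. Occludin (Ocln), a standard marker of tight junction strands, was dim on both arrays, with signals of 1.14 and 5.19. Cldn2 (-0.91) and Jam2 (-0.81) came near 2-fold on the neurosphere side.

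Jam2 had probes pointing in opposite directions, and the first 30 of the 60 bases of each probe are shown so that the measured stretches can be told apart. The coordinates are mm9, as in the scanner files. No annotation of that build was used here, so exon and intron are not given, but a span above the probe length means that the probe's bases are not contiguous in the genome.
Jam2 brighter probe, chr16:84821508-84823051, difference -0.81: gggcagtcctgcatctaaagtcactacgat
Jam2 fainter probe, chr16:84811166-84811225, difference 1.27: ctaaagtctgaagtcttaaattgttcaagg
The fainter Jam2 probe had signals of 20.0 in the neurosphere and 51.7 in the VZ/SVZ sample. The brighter probe spans more than its own length and the fainter one is contiguous. Taking the median over the probes of a gene put Jam2 at 0.23.

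**Figure D4:**
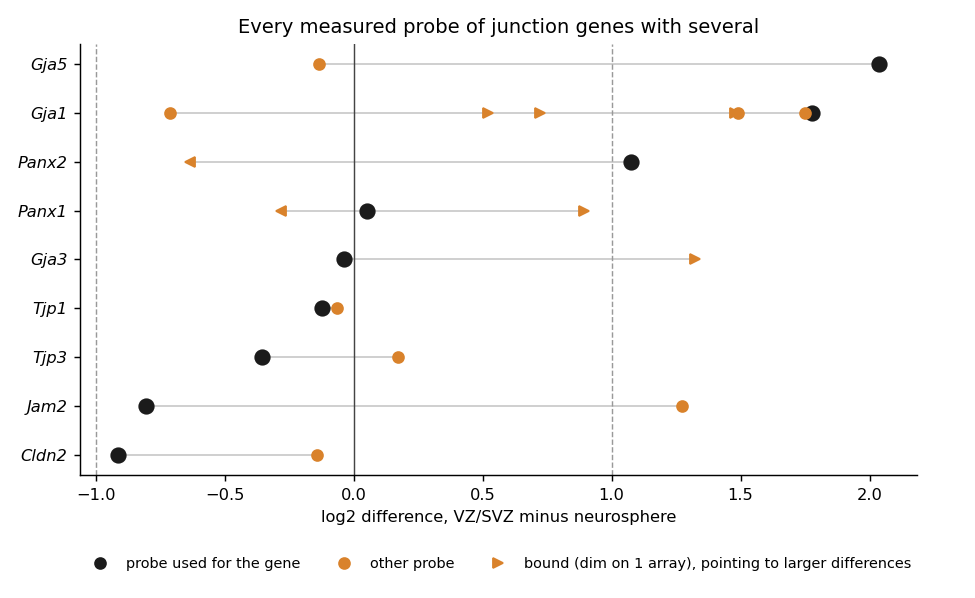
Every measured probe of 9 junction genes with more than 1 is drawn at its log2 difference, VZ/SVZ minus neurosphere, with the probe used for the gene in black, other probes in orange and bounds as arrowheads. In 7 of the 9 genes, all but Tjp1 and Cldn2, the probes lie on both sides of 0. The side of an arrowhead is set by which array was dim. A probe of each of Gja3, Gja5, Panx1 and Tjp3 lies within its technical error of 0.

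Genes that work with these junctions are set beside the 18.7% of all genes that were higher in the VZ/SVZ sample and the 11.1% higher in the neurosphere. Of 33 other tight junction genes, polarity proteins and scaffolds among them, 31 were measured, 9 (29.0%) were higher in the VZ/SVZ sample and 4 (12.9%) in the neurosphere, with a median of -0.20. Esam, an endothelial adhesion molecule gene that was dim in the neurosphere, had a bound of 5.61. Cgnl1, which encodes paracingulin, stood at 4.11 ± 0.21 with its probes from 3.15 to 5.31. The scaffold genes Patj (-4.60 ± 0.27) and Magi2 (-1.97 ± 0.21) stood on the neurosphere side, but each had a probe above 0, at 1.56 and 0.91. Pard6b and Crb1 were dim on both arrays. Of 14 adherens junction genes, 13 were measured and 2 (15.4%) were higher on each side, with a median of 0.09. The actin crosslinker Actn1 stood at 3.92 ± 0.21, plakoglobin (Jup) at -1.37 ± 0.20 and Nectin3 at -1.02 ± 0.20, and E-cadherin (Cdh1) was dim on both arrays. Of 18 partners and regulators of the Gja1 protein, all measured, 4 were higher in the VZ/SVZ sample and 2 in the neurosphere, with a median of -0.05. These shares are 22.2% and 11.1%, near those over all genes. The kinase gene Prkcd, dim in the neurosphere, had a bound of 6.51. Among genes bright on both arrays, Cav1, which encodes caveolin, stood at 3.16 ± 0.21, Tubb3 at 1.90 ± 0.21 and the actin regulator gene Eps8 at -1.38 ± 0.20.

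Markers of other cell types are given beside the junction genes, because RNA of a mixed sample cannot separate a change in the number of cells of a type from a change in RNA per cell. Over all genes measured, 18.7% were higher in the VZ/SVZ sample and 11.1% in the neurosphere. All 11 endothelial markers were measured, 7 were higher in the VZ/SVZ sample and none in the neurosphere, with a median of 2.33. Their summed processed signal was 137 for the neurosphere array and 962 for VZ/SVZ. Emcn stood at 3.61 ± 0.27, the drug transporter gene Abcb1a at 3.47 ± 0.33 and Eng at 2.33 ± 0.22, beside Cldn5 at 4.34, Gja4 at 3.54 and F11r at 4.26. Of the other endothelial junction genes, Gja5 stood at 2.03 with a second probe at -0.14, and Jam2 at -0.81 with its other probe at 1.27. Cdh5, the endothelial cadherin, was not well above background in the neurosphere and was at least 72.9-fold higher in the VZ/SVZ sample, and Kdr was dim in the VZ/SVZ sample. Slco1c1, a transporter gene of the blood-brain barrier, stood at -0.10 ± 0.23, with its other probe at 1.22. The part of these cells in the junction genes' differences was not tested.

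The next counts also stand beside 18.7% of all genes measured higher in the VZ/SVZ sample and 11.1% in the neurosphere. Of 10 simple epithelium markers, 7 were measured, 4 were higher in the VZ/SVZ sample and 1 in the neurosphere, with summed signals of 65.2 and 432. Epcam, which binds Cldn7, was at least 16.6-fold higher in the VZ/SVZ sample, and Cdh1, Krt19 and Elf3 were dim on both arrays. Cldn6 and Cldn7, bright on both arrays, stood at 2.71 and 0.40. Of 10 choroid plexus markers, 6 were measured, 4 were higher in the VZ/SVZ sample and 1 in the neurosphere, with summed signals of 151 and 1165, of which Aqp1 alone (6.94 ± 0.34) gave 771 in the VZ/SVZ sample. The defining genes Ttr, Kl, Kcne2 and Slc4a5 were dim on both arrays. Of the claudins of that epithelium, Cldn2 was bright on both arrays and stood at -0.91. Cldn1 and Cldn3 were dim on the neurosphere array only, with bounds of 1.46 and 0.81. All 10 fibroblast markers were measured, 8 were higher in the VZ/SVZ sample and 2 in the neurosphere, with summed signals of 440 and 12082, beside Gja1 and Gjc1. Of those bright on both arrays, the collagen gene Col1a2 stood at 6.22, Postn at 4.40 (with its probes from 0.73) and Fbln1 at -1.61. The part of these cell types in the differences was not tested either.

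Markers of glia and neurons divided. Of all genes measured, 18.7% were higher in the VZ/SVZ sample and 11.1% in the neurosphere. In the VZ/SVZ sample 1 of 6 microglia markers (16.7%) and 1 of 9 myelinating oligodendrocyte markers (11.1%) were higher. With so few genes, these shares cannot be told apart from 18.7%. Of 10 astrocyte markers, 4 were higher in the neurosphere and 3 in the VZ/SVZ sample, with summed signals of 8021 and 4070, beside the higher Gja1 in the VZ/SVZ sample. Slc1a3 stood at -3.90 ± 0.20 (with its probes up to 0.74) and Aldh1l1 at 4.52 ± 0.21. Of 10 myelinating oligodendrocyte markers, 9 were measured, 1 was higher in the VZ/SVZ sample and 2 in the neurosphere, with summed signals of 715 and 389. Opalin was dim on both arrays. Gjb1, Gjc3 and Cldn11, bright on both arrays, stood at 1.05, 0.75 and -0.60. Of 10 ependymal markers, 9 were measured, 3 were higher in the neurosphere and none in the VZ/SVZ sample, with summed signals of 1881 and 1162 and Ak7 dim on both arrays. Of 10 microglia markers, 6 were measured and 1 was higher in the VZ/SVZ sample, with summed signals of 15596 and 18885, mostly from Itgam (13804 and 16835), and Cx3cr1, P2ry12, C1qa and Tyrobp were dim on both arrays. Of 10 neuron markers, 8 were measured, 5 were higher in the VZ/SVZ sample and 1 in the neurosphere, with a median of 2.13, beside Panx2. Their summed signals of 10366 and 8209 came mostly from Snap25 (5391 and 5421) and, in the neurosphere, Map2 (4806, against 505). Rbfox3 and Slc17a7 were dim on both arrays.

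**Figure D5:**
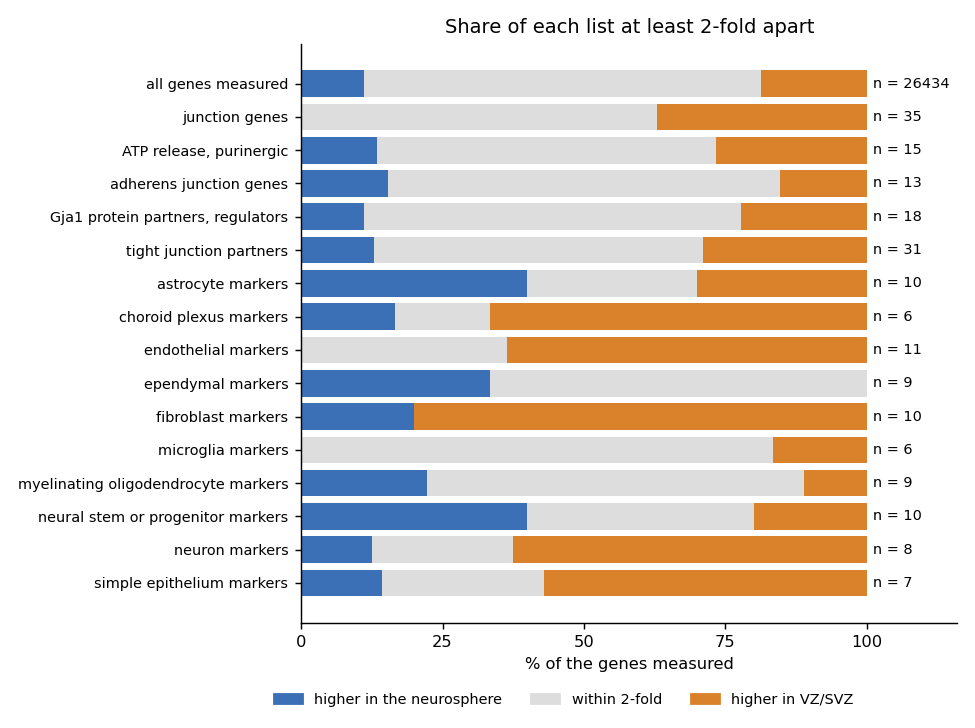
Bars give, for all genes measured, the junction genes, 4 lists of genes that work with them and 10 lists of cell type markers, the percentage of measured genes at least 2-fold higher in the neurosphere (blue), within 2-fold (grey) and at least 2-fold higher in the VZ/SVZ sample (orange), with the number measured at the right. The junction genes and the endothelial and microglia markers have no blue part.

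The counts rest in part on how faint signals were treated. With normexp background correction, which adds an offset and so shrinks differences of faint probes, 6 of the 35 junction genes were 2-fold or more higher in the VZ/SVZ sample, beside 5.56% of all genes, and 0 in the neurosphere, beside 4.8%. These 6 were F11r at 2.85, Cldn5 at 1.79, Gja1 at 1.76, Gja4 at 1.53, Gjc1 at 1.53 and Gja5 at 1.01, whereas Cldn15 stood at 0.99, Cldn20 at 0.77, Cldn6 at 0.71, Panx2 at 0.66, Gjb1 at 0.41 and Cldn1 at 0.21. When genes took the median of their probes, 11 of 35 were higher in the VZ/SVZ sample, beside 18.3% of all genes, and 0 in the neurosphere, beside 10.2%. Quantile normalization gave 11 and 1, beside 14.8% and 13.7%.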

How the data were processed

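Cy3-labelled total RNA of both samples was hybridised to Agilent arrays (1 array per group). Spot intensity was extracted by the authors with Agilent Feature Extraction 11.5.1.1, per the file headers (version 9.1 in the submitters' processing notes). The processed signal is an intensity after background subtraction and is not scaled between arrays, per the file headers. The authors' deposited value table holds the same linear intensity (median ratio to the scanner value 1.00 on both arrays; column medians 12.95 and 18.55).

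Control spots (3671 of 62976) and spots marked as non-uniform or population outliers (79 and 142, none of a junction gene) were left out. Levels were log2 of the processed signal minus the 75th percentile over 56599 probes. Each junction probe had 1 spot. A gene took its probe with the highest mean level among those well above background on at least 1 array. Other genes were renamed through RefSeq's mouse table (GRCm38.p6), and all 77 junction probes kept their names. No test was made, since each group has 1 array, and the steps were checked on simulated arrays. The junction genes, the gene lists and the motifs were chosen with earlier results of these data known. Named are measured junction genes (a few of the 54 are counted but not reported here by name) and, of each other list, up to 3 genes with the largest difference, with genes known only by a bound ranked last, and those dim on both arrays. Prkcd, Esam, Fabp7, Vim, Snap25, Itgam, Cdh5, Epcam, Kdr, Slco1c1 and the genes with another probe mentioned fall outside that rule or were chosen after their values were seen. Alternatives were normexp (limma 3.58.1 in R 4.3.3, offset 50), quantile normalization, centring on probes bright on both arrays, the median over a gene's probes, probes bright on both arrays only, outlier spots kept, and the deposited value table.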

Additional observations from a re-analysis of the deposited data

How the results depend on the processing

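No paired analysis was possible because each group has 1 array, and for the same reason no replicate could be left out. The number of junction genes at least 2-fold higher in the VZ/SVZ sample was 13 and lay between 11 and 13 under the 6 alternatives other than normexp, which gave 6. With normexp the median was 0.18 over the junction genes, 0.18 over claudins and 0.34 over connexins. The number higher in the neurosphere was 1 with quantile normalization (Cldn2, -1.14) and 1 with centring on probes bright on both arrays, and 0 under the other 5 alternatives. No junction gene that was 2-fold apart changed sign under an alternative that gave it a value (11 of the 13 had one with probes bright on both arrays only, and all 13 under the other 6). Calls lost included Cldn1, Cldn6, Cldn15, Cldn20, Gjb1 and Panx2 with normexp, Cldn1 and Gjb1 with quantile normalization, and Gja5 (0.95) and Panx2 (0.22) with the median over probes. The counts over all genes, VZ/SVZ side first, were 4934 and 2927, against 1470 and 1268 with normexp and 3908 and 3629 with quantile normalization. Signal over background limits genes below a log2 level of -4.26 (neurosphere) or -4.16 (VZ/SVZ).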

Other observations

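Junction genes that lie next to each other in the genome did not all differ alike (coordinates in mm9, from the first probe's start to the last probe's end). On chromosome 17, between 23819027 and 23820227, Cldn6 stood at 2.71 ± 0.30 and Cldn9 at 0.12 ± 0.27, with probes 1.08 kb apart. On chromosome 5, Cldn4 stood at 0.99 ± 0.25 and Cldn3 at 0.81 or above, with probes 41.1 kb apart. Cldn3 was dim on the neurosphere array, so it could not have come out below 0, and this pair does not show whether neighbours differ alike.

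Genes of ATP release and purinergic signalling form the pathway that pannexins feed. Of 17, 15 were measured, 4 (26.7%) were at least 2-fold up in the VZ/SVZ sample and 2 (13.3%) were down, beside 18.7% and 11.1% of all genes, with a median of 0.51. P2rx7, the ATP-gated channel gene often studied with Panx1, stood at -2.97 ± 0.21 with signals of 309 in the neurosphere and 42.1 in the VZ/SVZ sample, and its probes ran from -2.97 to -2.63. P2ry2 stood at 2.52 ± 0.29, while P2ry12 and the ATP-degrading ectoenzyme gene Entpd2 were dim on both arrays.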
